A study of Mus musculus with 18 samples.

Results

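The series design describes ATF4 ChIP-seq. The regions described here are the places where an immunoprecipitation from untreated neurons gave an unusually wide peak. Peaks were merged over 8 lists wherever they shared 1 bp, which gave 35717 regions on chromosomes 1 to 19 and X. A region was kept where a peak of 800 bp or wider touched it in at least 1 control list, and a segment of chromosome 2 around Cwc22 with 11 such regions was left out. This left 145 regions. Control peak widths therefore chose the members and are given as description only.

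The cells were primary immature mouse neurons taken from embryonic day 14 embryos and used after 2 days in vitro. They stayed untreated (control) or received 10 mM 2-deoxyglucose (2-DG) for 6 h, a glucose analogue that blocks glycolysis. No strain, genotype, sex or pooling of embryos is stated, and the same medium with fetal bovine and horse serum served both treatments. Control lists 1 to 4 carry the title numbers 1, 5, 9 and 13, and 2-DG lists 1 to 4 carry 2, 6, 10 and 14, so that control and 2-DG lists with the same list number here have consecutive titles. The antibody field reads none for the control samples, whereas the series design names an ATF4 antibody for both treatments. Which antibody the control immunoprecipitations received is therefore not settled. No read counts accompany the peaks, so depth is unknown and a site without a peak is only a site where no peak was called.

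ATF4 is a basic leucine zipper factor of the integrated stress response. It pairs with C/EBP proteins on composite sites that read TGATGCAA or close to it, and it switches on genes of amino acid supply and of recovery from stress. Tandem gene families, such as the KRAB zinc finger genes that repress transposable elements or the Sp100 and Sp140 genes of nuclear bodies, arose by repeated duplication, and neighbouring members can be nearly identical in sequence. The defining gene lists of neurons, astrocytes, oligodendrocytes, microglia, vascular cells and progenitors had 0 members under a wide region, so these regions give no check of the labelled cell type.

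Promoter sequences of a few genes at or near the regions are printed first. Each is the 250 bases before a RefSeq gene start on GRCm38.p6, written 5′ to 3′ on the strand of the gene. Of 26794 genes with such a window (taken to 50 bases past the start for searches), 14 had one that overlapped a wide region. The motif TGATGNAA was searched on both strands, and TGATGCAA, a special case of it, was counted separately. TGATGNAA was present in 3.87% of 32619 windows and TGATGCAA in 0.880%. Among the 14 genes, Chac1 and Iars held both motifs as the same site, and the palindrome TGACGTCA of CREB-type factors, present in 1.80% of windows, was in 0. Chac1 (chr2:119350992-119351241, plus strand) and Iars are printed because they are ATF4 targets whose windows overlap a wide region and hold the motif. Capitals mark TGATGNAA on the reverse strand, which begins at base -193 of Chac1 and at base 7 after the start of Iars. For Iars the 30 bases around the site are given (chr13:49682126-49682155, plus strand).
Chac1: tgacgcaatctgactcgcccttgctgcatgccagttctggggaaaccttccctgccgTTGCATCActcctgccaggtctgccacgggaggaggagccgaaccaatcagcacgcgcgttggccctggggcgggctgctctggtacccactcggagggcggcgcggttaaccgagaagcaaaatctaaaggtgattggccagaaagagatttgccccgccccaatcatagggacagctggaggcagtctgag
Iars: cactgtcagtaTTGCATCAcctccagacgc

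The other sequences belong to genes of the clusters. The windows of Sp140, A530032D15Rik, C130026I21Rik, Zfp970 and Gm14403 lie near wide regions but outside them. Sp140 (chr1:85600453-85600702, plus strand), A530032D15Rik (chr1:85109854-85110103, minus strand) and C130026I21Rik (chr1:85270567-85270816, minus strand) lie in the cluster that held the most members, and they are printed because their promoters are near copies. Without gaps, A530032D15Rik matched Sp140 at 220 of 221 aligned bases (99.5%) and C130026I21Rik matched it at 204 of 212 (96.2%). Capitals mark the longest run shared with Sp140, of 115 and 108 bases.
Sp140: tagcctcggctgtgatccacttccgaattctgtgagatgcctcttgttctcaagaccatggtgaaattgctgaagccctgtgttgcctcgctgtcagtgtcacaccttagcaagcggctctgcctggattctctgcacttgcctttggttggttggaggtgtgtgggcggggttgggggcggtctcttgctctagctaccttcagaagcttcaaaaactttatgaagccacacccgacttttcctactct
A530032D15Rik: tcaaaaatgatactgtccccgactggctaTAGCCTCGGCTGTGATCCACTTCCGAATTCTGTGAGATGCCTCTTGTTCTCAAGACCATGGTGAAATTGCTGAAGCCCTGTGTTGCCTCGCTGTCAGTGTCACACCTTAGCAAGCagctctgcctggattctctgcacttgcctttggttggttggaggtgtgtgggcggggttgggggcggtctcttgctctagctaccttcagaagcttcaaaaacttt
C130026I21Rik: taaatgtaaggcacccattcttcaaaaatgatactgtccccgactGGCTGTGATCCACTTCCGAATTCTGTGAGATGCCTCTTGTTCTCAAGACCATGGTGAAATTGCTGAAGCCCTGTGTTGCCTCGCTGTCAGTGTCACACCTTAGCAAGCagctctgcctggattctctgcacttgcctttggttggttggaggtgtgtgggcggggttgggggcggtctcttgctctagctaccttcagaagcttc

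Zfp970 (chr2:177464492-177464741, plus strand), a zinc finger gene, and Gm14403 (chr2:177497976-177498225, plus strand), annotated as a long noncoding RNA, lie in a cluster on the same chromosome as Chac1 but far from it. They matched at 224 of 235 aligned bases (95.3%), and capitals mark a shared run of 60 bases. 1600014C10Rik (chr7:38183537-38183786, plus strand) overlaps a wide region and is printed for the cluster whose peaks differed most between lists, and nothing in it is capitalised.
Zfp970: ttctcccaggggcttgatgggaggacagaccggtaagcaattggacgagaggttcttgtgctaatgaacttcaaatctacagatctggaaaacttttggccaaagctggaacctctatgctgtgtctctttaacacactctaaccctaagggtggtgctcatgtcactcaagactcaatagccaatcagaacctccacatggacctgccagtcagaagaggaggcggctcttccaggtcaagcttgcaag
Gm14403: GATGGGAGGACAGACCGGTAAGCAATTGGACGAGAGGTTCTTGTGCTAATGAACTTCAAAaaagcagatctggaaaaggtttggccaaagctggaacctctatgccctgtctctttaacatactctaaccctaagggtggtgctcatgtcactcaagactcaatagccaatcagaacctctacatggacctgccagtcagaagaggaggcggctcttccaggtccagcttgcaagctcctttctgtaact
1600014C10Rik: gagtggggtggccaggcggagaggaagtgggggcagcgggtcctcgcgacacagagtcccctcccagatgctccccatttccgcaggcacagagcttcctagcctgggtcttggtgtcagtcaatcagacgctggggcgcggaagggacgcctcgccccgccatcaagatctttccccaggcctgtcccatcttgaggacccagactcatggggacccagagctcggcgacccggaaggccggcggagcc

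Shared runs of promoter sequence were frequent among the neighbours of these regions. Of 104 genes with a window within 50 kb of a member, 32 (30.8%) shared a run of at least 40 bases with the window of another gene, against 2546 of 26794 genes (9.50%). Of the 14 genes whose own window overlapped a member, 3 did so (21.4%). A shared run of 40 bases does not by itself make windows near copies. Sp110, for example, shared such a run with 22 other genes, among them Arih2 and Pemt. These shares are descriptions of the annotation around the regions.

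The members spanned 839 to 10839 bp with a median of 1564 bp, and 299437 bp in all, whereas all merged regions had a median of 148 bp. The widest was an intergenic region near the start of chromosome 16 (chr16:3231575-3242413). The limit of 800 bp separated close neighbours. The narrowest controls that qualified had peaks of 800 bp in Mrgpra3, 801 bp in Mroh2a, 821 bp in Gm42346, 824 bp near Spin2f and 825 bp in Gm38510, while peaks of 799 bp in Gm7592, 796 bp near Itln1, 795 bp in Mrgpra3, 789 bp at Gm38510 and C130026I21Rik and 788 bp at Sp140 fell outside it. Several genes thus had peaks on both sides of the limit. Of the 145 members, 58 were wide in exactly 1 control list, 36 in 2, 32 in 3 and 19 in all 4.

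The 2-DG lists, which the rule did not use, had peaks at nearly all members. A peak touched 139, 138, 127 and 135 members in 2-DG lists 1 to 4, against 134, 133, 130 and 135 in control lists 1 to 4. The numbers of the treatments overlapped, and the lowest of each came from the lists titled 9 and 10. Every member has a control peak by the rule, so here and below such overlap is not a test of treatment. All 4 2-DG lists had a peak at 112 members (77.2%), against 3.44% of all merged regions and 3.59% of regions with a control peak. Of the others, 28 had a peak in 3 2-DG lists, 3 in 2, 1 in 1 and 1 in 0. All 8 lists had one at 101 members (69.7%), against 1.01% of all merged regions and 2.12% of those with a control peak. These shares are not matched for length, since members are far longer than other regions.

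Wide peaks recurred under 2-DG at most members. A peak of 800 bp or wider lay at 82, 68, 42 and 62 members in 2-DG lists 1 to 4 and at 87, 74, 45 and 96 in control lists 1 to 4. At least 1 2-DG list had a wide peak at 104 members (71.7%), against 0.555% of all merged regions and 0.932% of regions with a control peak. All 4 had one at 24 members, against 0.158% of regions with a control peak, and 41 members were wide in no 2-DG list. The map of widths by list shows every member in the order of title numbers.

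**Figure D1:**
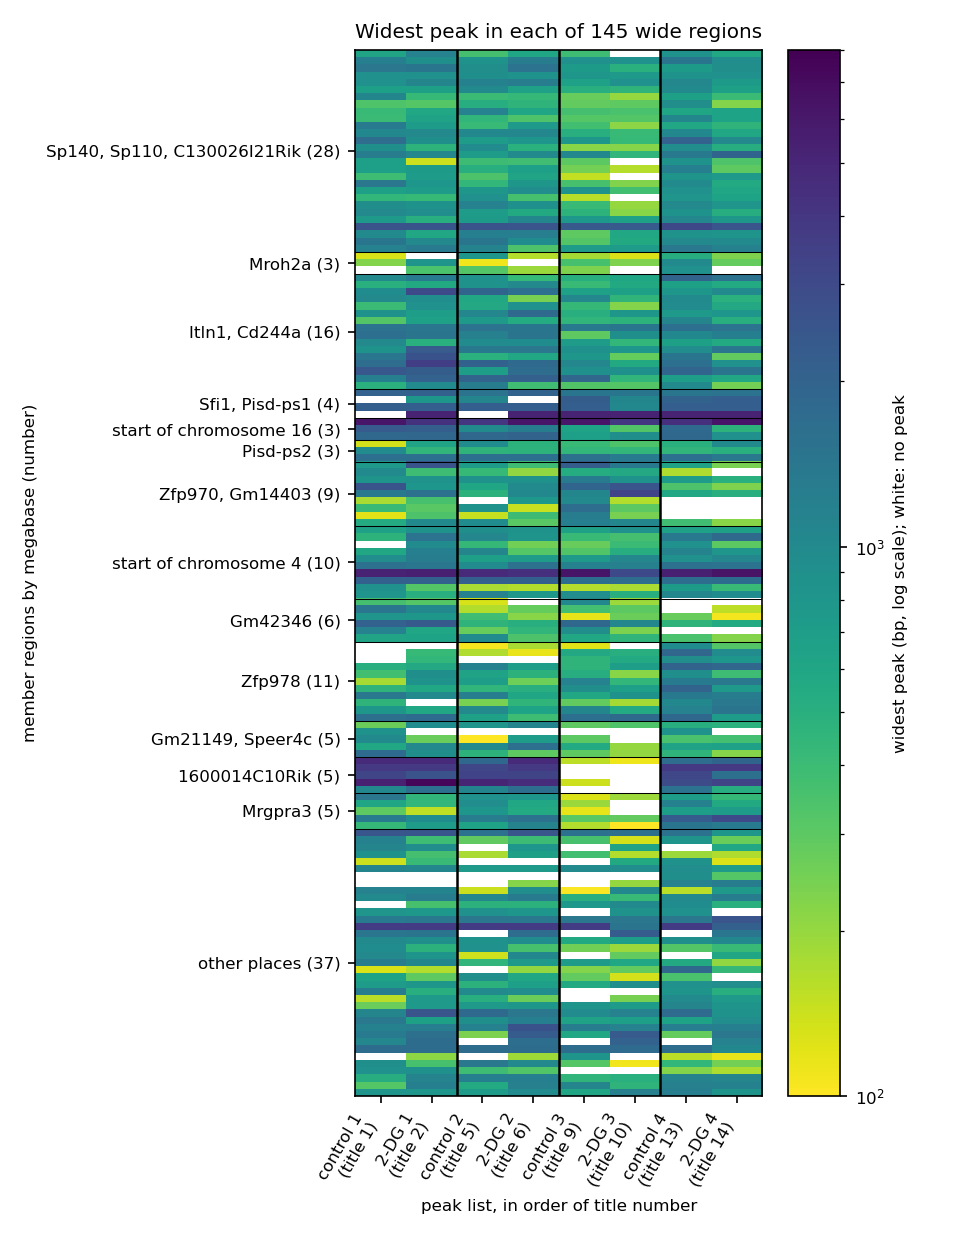
Each row is 1 of the 145 regions, grouped by megabase, and each column is a peak list in order of title number, with lines between pairs of consecutive titles. Colour gives the widest peak in bp on a log scale and white means no peak; at 1600014C10Rik the columns titled 9 and 10 are nearly empty, and at Zfp970 and Gm42346 those titled 13 and 14 have white cells in both treatments.

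The members were bunched along the genome. They lay in 44 megabases, and 13 megabases with at least 3 members each held 108 of them (74.5%). Joining members under 500 kb apart gave 43 chains, of which 25 were a single member. They were on 17 of 20 chromosomes. The megabase that starts at 3 Mb, where mouse reference chromosomes begin, held 22 members (15.2%) on 6 chromosomes, against 1.25% of all merged regions. Of the members, 65 overlapped a protein-coding gene (44.8%, against 41.6% of all merged regions), 86 overlapped an annotated gene of any kind (59.3%, against 51.9%) and 59 overlapped none (40.7%, against 48.1%). The share in protein-coding genes was near the background.

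In all, 50 members (34.5%) lay in a gene family cluster, defined as at least 3 protein-coding genes of 1 family within 500 kb, against 9.59% of all merged regions and 12.1% of regions with a control peak. The Sp100 and Sp140 family accounted for 28 members (19.3%, against 0.725% of all merged regions). The KRAB zinc finger family accounted for 16 (11.0%, against 2.59%). Clusters of cytochrome P450 or UDP glucuronosyltransferase genes, which modify drugs and steroids, held 3 (2.07%, against 0.801%). An X-linked multicopy testis family near Spin2f, the alpha defensins near Defa21, which encode antimicrobial peptides, and the core histones at H4c14 held 1 each. That is 0.690% of members each, against 0.409%, 0.406% and 0.132% of all merged regions, and 1 member is too few to set apart from these shares. Olfactory and vomeronasal receptors, the MHC, Hox genes and the other families searched had 0 members by this definition. Zinc finger genes that carry only a predicted-gene name were not searched for. The 9 members near Gm14410, the 6 near Gm42346 and the 5 near Gm21149 and Speer4c were not in this count. The windows of Gm21149 and Speer4c each shared a run of at least 40 bases with 23 other genes, Speer4a and Speer4b among them. The 0 for the Speer family therefore depends on which gene names were searched. The count was 75 when the family genes could lie within 1000 kb.

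The Sp140 cluster on chromosome 1 (chr1:85080334-85625623) held 28 members. They overlapped 5 of the 8 genes of its family, A530032D15Rik, C130026I21Rik, Gm7592, Sp110 and Sp140, while 7 members overlapped none of these. Gm38510, a predicted protein-coding gene that overlaps C130026I21Rik, held 12 members, 3 of them in no gene of the family. Sp110 and Sp140 encode nuclear body proteins of immune cells that read chromatin. Control lists 1 to 4 had 29514, 29294, 20987 and 33794 bp under peaks in these members, and 2-DG lists 1 to 4 had 28562, 29186, 16310 and 29246 bp. The treatments overlapped, and the list titled 10 was lowest of all with its neighbour titled 9 next. Peaks touched all 28 members in every list except 2-DG list 3, which touched 24. The region that overlaps both Sp110 and Sp140 (chr1:85590374-85593581) had widths of 2594, 2591, 2351 and 3120 bp in the control lists and 2580, 2509, 2284 and 2508 bp in the 2-DG lists. Width there varied little between lists of either treatment.

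Another cluster on chromosome 1, around Itln1 and Cd244a (chr1:171514591-171579894), packed 16 members into 65304 bp. Itln1 encodes intelectin, a lectin that binds microbial sugars, and Cd244a encodes a receptor of natural killer cells. All 16 members had a peak in all 8 lists. The control lists had 23926, 27309, 20321 and 27622 bp under peaks and the 2-DG lists 31701, 26541, 18153 and 25547 bp. The treatments overlapped here too. The region at Cd244a (chr1:171561712-171566562) was among the 10 widest, with widths of 2442, 683, 892 and 1908 bp in the control lists and 2180, 1677, 892 and 1474 bp in the 2-DG lists.

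In the zinc finger clusters the highest or the lowest control and 2-DG lists had consecutive titles. At Zfp978 on chromosome 4, 11 members (chr4:147122797-147520898) had 8211, 11348, 13083 and 18620 bp under peaks in the control lists and 10159, 8247, 8736 and 16644 bp in the 2-DG lists. The pair titled 13 and 14 was highest in each treatment. Another cluster on chromosome 4 held 6 members, some in Gm42346 and the others nearest to Zfp990 or Gm13212. They had 10025, 3948, 7870 and 2161 bp in the control lists and 9013, 3114, 4855 and 2311 bp in the 2-DG lists. Here the pair titled 13 and 14 was lowest and the pair titled 1 and 2 highest. Near Zfp970, Gm14403 and the pseudogene Gm14412 on chromosome 2, 9 members (chr2:177072903-177518845) had 11273, 8890, 16345 and 3950 bp in the control lists and 12192, 8196, 12676 and 3765 bp in the 2-DG lists. The pair titled 9 and 10 was highest there, although it had the fewest wide peaks of all pairs, and the pair titled 13 and 14 was lowest, with 0 wide peaks in either list.

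The largest ratio of the highest to the lowest list among the 13 megabases was at 1600014C10Rik on chromosome 7 (chr7:38175808-38201287), where 5 members lie in 25480 bp. The control lists had 20322, 19758, 294 and 19218 bp under peaks and the 2-DG lists 20861, 20655, 112 and 19404 bp. The lists titled 9 and 10 were thus almost without peaks where the other 6 were high, and the ratio was 186. The widest member in the gene (chr7:38191074-38198517) had widths of 5384, 5053, 140 and 2873 bp in the control lists, and 7444, 4595, 0 and 3269 bp in the 2-DG lists. A further 3 members of the cluster had no peak in either list of the pair.

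Mrgpra3, an itch receptor gene of sensory neurons, also on chromosome 7, gave a milder form of this pattern over 5 members. The control lists had 8530, 11556, 2331 and 11863 bp under peaks and the 2-DG lists 7901, 11171, 1559 and 10802 bp. The pair titled 9 and 10 was again lowest. Near Gm21149 and Speer4c on chromosome 5, 5 members had 4727, 2913, 2045 and 4156 bp in the control lists and 3686, 4164, 956 and 2625 bp in the 2-DG lists. The member of this cluster at chr5:15463421-15464299 was the 1 region with no peak in any 2-DG list; its control peaks, 856 and 857 bp wide, came from control lists 1 and 4. In Mroh2a on chromosome 1, 3 members had 535, 1234, 1110 and 2674 bp in the control lists and 1175, 619, 547 and 652 bp in the 2-DG lists. No pair stood out there.

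Members near the starts of chromosomes 16, 17 and 4 differed least between lists of the 13 megabases. On chromosome 16, 3 members lay 344321 to 349985 bp from the nearest protein-coding gene, the olfactory receptor gene Olfr161. They had 13651, 13242, 12754 and 14299 bp under peaks in the control lists and 14094, 14490, 11338 and 12850 bp in the 2-DG lists. On chromosome 17, 2 members lay in the transcribed pseudogene Pisd-ps2 and 1 (chr17:3012868-3013877) in no annotated gene. Together these 3 had 2822, 3351, 2927 and 3030 bp in the control lists and 3143, 3015, 2555 and 3192 bp in the 2-DG lists. The ratio of highest to lowest list was 1.28 on chromosome 16, 1.31 on chromosome 17 and 1.41 on chromosome 4. On chromosome 4, 10 members, 8 of them nearest to the vomeronasal receptor gene Vmn1r2, had 16729, 18286, 16447 and 22670 bp in the control lists and 22288, 17464, 16076 and 21592 bp in the 2-DG lists. The treatments overlapped in each case.

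Sfi1 on chromosome 11, which encodes a centrosomal protein, had 4 members at it or up to 27088 bp away, 1 of them over the pseudogene Pisd-ps1. The control lists had 5631, 7376, 13625 and 13783 bp under peaks and the 2-DG lists 11761, 10833, 13045 and 13649 bp. Much of this spread came from 1 member in Sfi1 (chr11:3175082-3180329). It was 5199 to 5236 bp wide in the other 6 lists and had no peak in control lists 1 and 2. Its neighbour at chr11:3149477-3151644 was wide in all 8 lists.

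**Figure D2:**
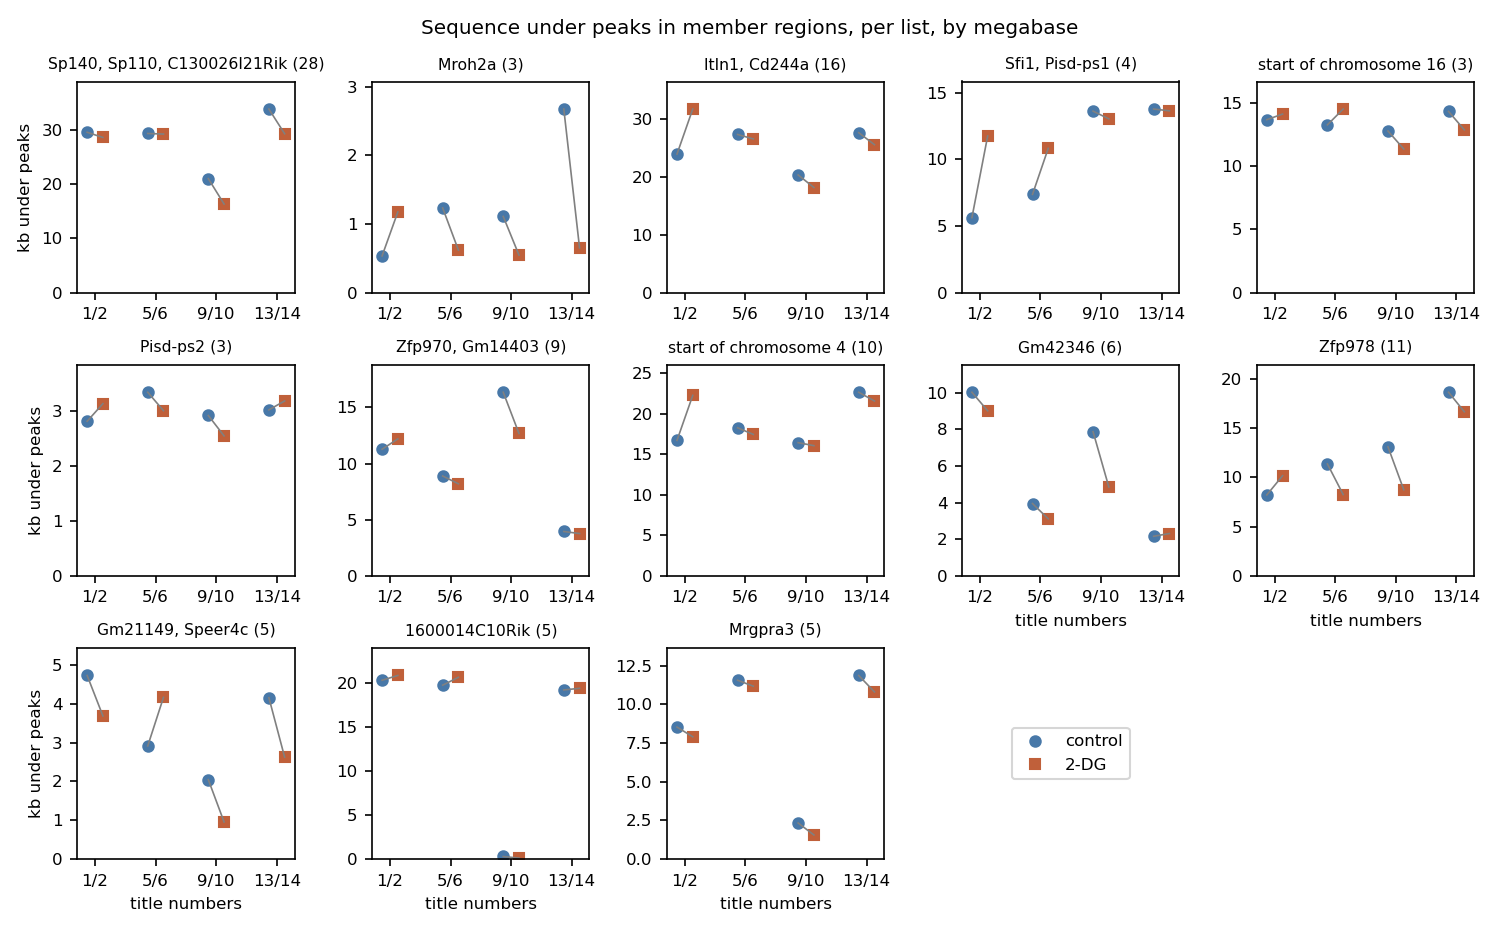
Each panel is 1 of the 13 megabases with at least 3 members (number in brackets). Circles (control) and squares (2-DG) give the kb under peaks in those members in 1 list, grey lines join lists with consecutive title numbers, and each vertical axis starts at 0; at 1600014C10Rik both lists of the pair titled 9 and 10 are near 0.

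Over these 13 megabases the control and 2-DG values did not separate anywhere: 0 of 13 had all lists of 1 treatment above all lists of the other. Control peak widths chose the members and left out regions wide in 2-DG lists alone, so this count is not a test of treatment. In 9 of 13 the lowest control list and the lowest 2-DG list had consecutive titles, and in 7 of these 9 the titles were 9 and 10. In 6 of 13 the highest lists had consecutive titles. The lists titled 9 and 10 also had the fewest wide peaks of their treatment, so the megabases are not independent observations.

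Outside these megabases, 37 members were scattered. Of the 16 members wide in all 8 lists, several were here. The region at the lncRNA 2700054A10Rik on chromosome 17 had control widths of 1286, 1404, 1405 and 1411 bp and 2-DG widths of 1380, 1388, 1407 and 2523 bp. Near Defa21 the control widths were 1173, 1157, 1242 and 1227 bp and the 2-DG widths 1237, 2632, 1145 and 1210 bp. The region near Gm39469 on chromosome 9 had control widths of 1699, 1714, 1704 and 1708 bp and 2-DG widths of 1700, 1712, 1738 and 1039 bp. Except for a single 2-DG list in each, these widths differed by little. On the X chromosome 4 members lay at or near Mid1, a ubiquitin ligase gene, and Asmt, which encodes an enzyme of melatonin synthesis. The member in Mid1 had widths of 868, 393, 0 and 225 bp in the control lists and 884, 327, 0 and 171 bp in the 2-DG lists, and so followed the order of the pairs. Nxpe5 on chromosome 5 likewise had no peak in the lists titled 9 and 10 and a peak in the other 6.

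At a few members the authors' fold differed between treatments. From the ATF4 target list of 40 genes, 3 overlapped a member: Chac1, Iars and Slc7a5. The lists of 18 ER chaperone genes and 9 neurotrophin and receptor genes had 0. Chac1 encodes a glutathione-degrading enzyme, Iars a tRNA synthetase for isoleucine and Slc7a5 a transporter of large neutral amino acids. Over all protein-coding genes, 30 of 21631 overlapped a member. Each of the 3 entered the set through control list 1, the only control list in which its peak was wide.

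At Chac1 (chr2:119350116-119352431), whose promoter is printed above, the control lists had widths of 1444, 0, 0 and 0 bp and the 2-DG lists 1482, 1673, 2236 and 1431 bp. The authors' fold over local background was 13.8 in control list 1 and 142, 128, 69.0 and 66.7 in the 2-DG lists. All 4 2-DG values were above the only control value. At Slc7a5 (chr8:121897337-121899729) the widths were 1055, 0, 0 and 0 bp in the control lists and 1693, 1636, 2019 and 1156 bp in the 2-DG lists, with a fold of 13.1 in control list 1 and 149, 105, 46.5 and 55.1 in the 2-DG lists. At Iars (chr13:49681577-49682855) all 8 lists had a peak, with control widths of 1137, 142, 103 and 158 bp and 2-DG widths of 1115, 935, 1026 and 754 bp. Its fold was 22.2, 4.03, 3.74 and 4.24 over the control lists, against 87.8, 79.7, 39.1 and 36.2 under 2-DG. Width did not separate the treatments at Chac1 or Iars, where control list 1 was wider than at least 1 2-DG list.

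A further 3 members, outside the target list, also had a higher fold in every 2-DG list. Ppp1r15b, which encodes a regulatory subunit of the eIF2α phosphatase, had control widths of 1091, 0, 0 and 0 bp and 2-DG widths of 931, 801, 643 and 593 bp, and a fold of 17.8 in control list 1 against 112, 86.1, 29.3 and 42.8 in the 2-DG lists. H4c14, a histone H4 gene, had control widths of 1022, 138, 0 and 0 bp and 2-DG widths of 824, 1028, 289 and 594 bp. The region at the lncRNA Gm26812 (chr8:121850396-121852686), on the same chromosome as Slc7a5, had a fold of 41.8, 10.6, 12.2 and 4.95 over the control lists, against 215, 199, 102 and 119 under 2-DG. These 3 were picked out after their values were seen. At each of these 6 sites every 2-DG list had a higher fold than any control list with a peak. At Chac1, Slc7a5 and Ppp1r15b that rests on a single control value. The share of all merged regions that meet this condition was not counted, so the 6 have no background to be set against. Control list 1 was the only control list wide at each of the 6, so the rule admitted them through it and its place among the control lists is no finding. Folds are the authors' values, each against its own list's background, and are set side by side without a test.

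**Figure D3:**
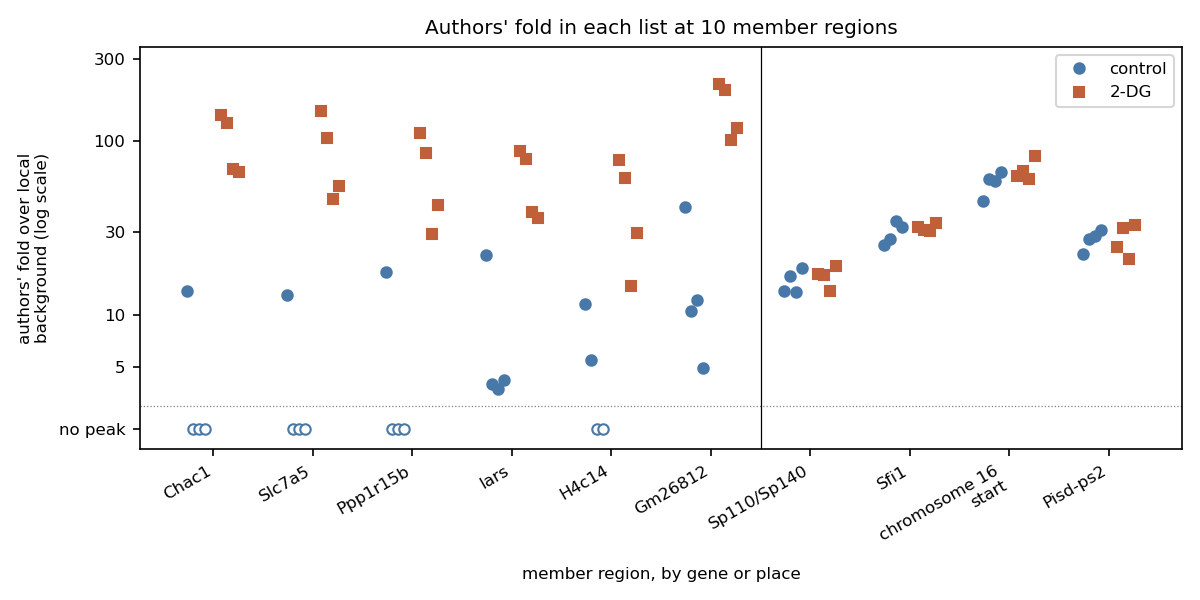
The authors' fold over local background (log scale) is shown for each control list (circles) and 2-DG list (squares) at 10 member regions, in list order from left to right; open symbols below the dotted line mean that no peak was called. At the 6 regions left of the line every 2-DG value is above every control value, and at the 4 right of it, which were wide in all 8 lists, the treatments overlap.

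Members were also ranked by fold among the 145 within each list, and a member without a peak was ranked last. Ranks exist for members only, so the counts below have no share over all merged regions beside them. For 5 members (3.45%) the rank was better in every 2-DG list than in every control list: Chac1, Slc7a5, Ppp1r15b, H4c14 and the region at Gm26812. Iars was not among them, since it ranked 9, 128, 127 and 130 over the control lists, against 5, 6, 8 and 13 under 2-DG. Of the 5, all but the region at Gm26812 had no peak in at least 1 control list and were ranked last there. For 8 members (5.52%) the rank was better in every control list, namely 2 in A530032D15Rik, 2 at or near Sfi1, 2 near Vmn1r2, 1 in Pisd-ps2 and 1 near Gm39469. Ranks are relative, so a site that moves up pushes others down, and this count is not read as higher signal in control. A member near Sfi1 (chr11:3101019-3104762) ranked 1, 1, 2 and 2 over the control lists, against 7, 5, 4 and 3 under 2-DG, while its folds overlapped, at 72.0 to 81.9 and 67.5 to 92.6. Chac1 ranked 16, 134, 131 and 136 over the control lists, against 3, 2, 3 and 6 under 2-DG. The region at Gm26812 ranked 4, 34, 28 and 124 over the control lists, against 1, 1, 2 and 1 under 2-DG. By width, 2 members (1.38%, Slc7a5 and Gm26812) were wider in every 2-DG list than in every control list, against 0.352% of regions with a control peak. In every control list 0 were wider, against 0.041%. Control widths chose the members but not those other regions, so the width shares are not comparable and are description only.

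Pairs of lists with consecutive titles resembled each other in member width. Spearman's rho of width across the 145 members, with no peak taken as 0, was 0.60 to 0.68 in the 4 pairs with consecutive titles (median 0.65) and 0.25 to 0.63 in the other 12 pairs of a control with a 2-DG list (median 0.36). Members of 1 cluster share their surroundings, so this is a description with no test. Both lists of a pair lacked a peak at 3 members in the pair titled 1 and 2, at 4 in 5 and 6, at 7 in 9 and 10 and at 5 in 13 and 14. The 7 were the member without any 2-DG peak near Gm21149, a member near Gm32719 on chromosome 12, 3 at 1600014C10Rik, and those in Nxpe5 and Mid1. The 5 were 3 near Gm14412 and Zfp970 and 2 in the cluster of Gm42346 and Gm13212.

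For tests, wide regions were redefined so that both treatments chose them alike, as regions with a wide peak in any of the 8 lists. There were 239, of which 104 were wide in both treatments, 94 in 2-DG lists alone and 41 in control lists alone. The number of wide peaks per list was 97, 86, 53 and 110 under control and 167, 132, 63 and 88 under 2-DG. The means were 86.5 ± 24.4 (SD, n = 4) and 112.5 ± 46.2 (SD, n = 4), with a two-sided exact permutation p of 0.371. As a share of each list's peaks, wide peaks made up 1.83 ± 0.929% (SD, n = 4) in control and 1.34 ± 0.371% (SD, n = 4) in 2-DG, with an exact permutation p of 0.343. The direction of this difference turned when every list was cut to its 3461 top peaks, where the 2-DG mean was 0.628 percentage points higher. At equal length the share is the count over a fixed number, whereas the full lists held 3461 to 15240 peaks. The sequence under peaks in the 239 regions, shared between treatments or not, was 201797 ± 26591 bp (SD, n = 4) in control and 256122 ± 48681 bp (SD, n = 4) in 2-DG. Its exact permutation p was 0.143. Adjusted over these 3 measures, each exact permutation p was 0.371. No difference passed 0.05, either before or after adjustment. Without 2-DG list 3 the difference in sequence rose from 54325 to 76024 bp with an exact permutation p of 0.0286.

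**Figure D4:**
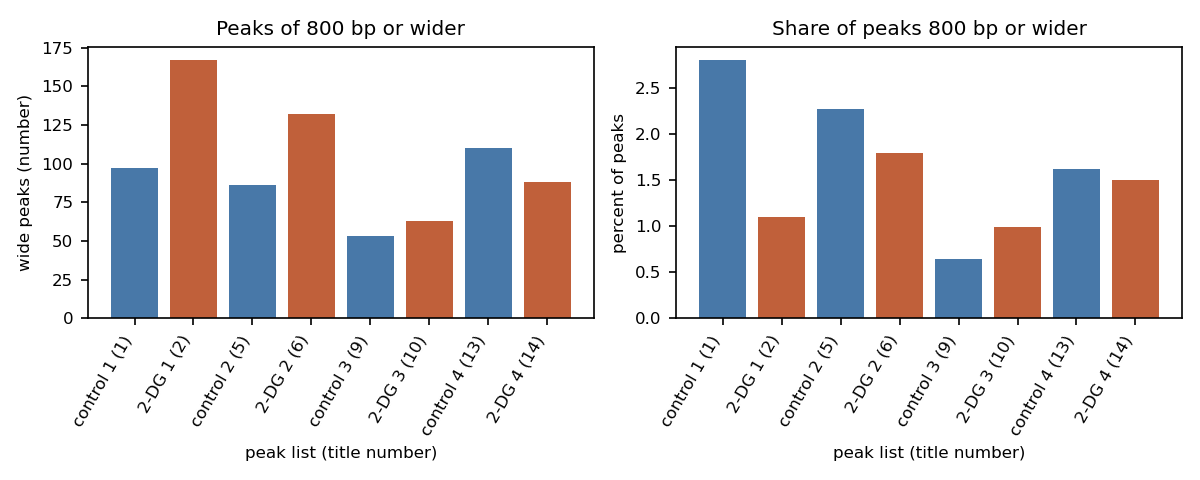
Bars give the number of peaks of 800 bp or wider in each list (left) and their share of all peaks of the list in percent (right), with the chromosome 2 segment left out of the wide peaks and blue for control and orange for 2-DG. Numbers ran from 53 in control list 3 to 167 in 2-DG list 1, and the treatments overlap in both panels.

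Sets of wide regions were compared by the Jaccard index, the number of regions shared by a pair of lists over the number in either. The mean was 0.367 within control, 0.363 within 2-DG and 0.322 between treatments. Within minus between came to 0.0426, with a one-sided exact permutation p of 0.0857 over 35 splits. This value passed 0.05 without 2-DG list 4 (0.0701, exact permutation p = 0.0286) and with a width limit of 600 bp (0.0764, exact permutation p = 0.0286). Between treatments, lists with consecutive titles had indices of 0.371, 0.347, 0.389 and 0.462, with a mean of 0.392, against a mean of 0.299 and a range of 0.196 to 0.433 in the other 12 pairs. The difference of 0.0932 gave a one-sided exact permutation p of 0.0417 over 24 matchings, the smallest that 4 pairs allow. The call was lost without the lists titled 9 and 10 (0.0468, exact permutation p = 0.167 over 6 matchings, the smallest that 3 pairs allow), without control list 4 (0.0658, exact permutation p = 0.167), without 2-DG list 1 (0.0871, exact permutation p = 0.0833) and at 600 bp (0.0542, exact permutation p = 0.0833). Of 21 alternatives, these 4 lost the call and 17 kept it. Adding the 2 lists with conflicting labels gave smaller differences, 0.0879 by title and 0.0807 by description. Each had an exact permutation p of 0.00833 over 120 matchings, the smallest possible there. The index is bounded by the sizes of the sets compared, and the lists titled 9 and 10 had the fewest wide peaks of their treatments. The share of wide members of control lists 1 and 2 also wide under 2-DG was highest in the consecutive list (74.7% and 67.6%). For control lists 3 and 4 it was 62.2% and 56.25% there, against 73.3% and 62.5% in 2-DG list 1. The effect of set size was not tested. The labels do not say what consecutive titles share, so a common culture, batch or day was not tested.

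**Figure D5:**
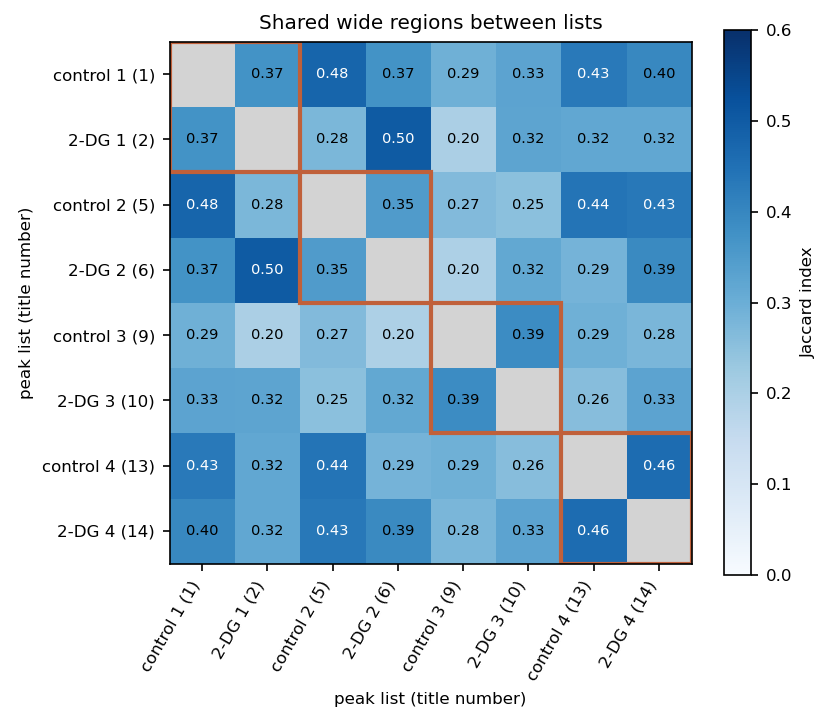
Each cell gives the Jaccard index of the sets of wide regions of 2 lists, in order of title number, and outlined squares hold pairs with consecutive titles. The pair titled 13 and 14 has 0.46, the highest of the control and 2-DG pairs, while the highest of all cells join lists of the same treatment.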

How the data were processed

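The authors deposited peak lists of 10 immunoprecipitations among 18 samples; the 8 input samples were not analysed here. Per the submitters' processing notes, the tools were BWA, Picard, MACS2 and DiffBind with build mm10, and no versions are given. Each deposited list came from 1 sample. For every summit it holds a position, the authors' ratio (fold) over local background, significance as -log10 of p and of q, and a deposited score. The authors' fold and -log10 values served to describe and rank peaks inside 1 list and to filter them in alternatives, and the deposited score was not used. The labels' extraction text is about RNA, and how chromatin was prepared is not stated in the labels.

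Groups came from titles that matched the other labels. In 4 samples, 2 of them with lists, title and description name different treatments, and they entered no main comparison. Per the series design there were 3 independent replicates, yet 4 lists per treatment were usable, and no label ties a list to a culture. Hence p-values reflect the spread among these samples alone, and that spread may be technical. Repeated intervals were counted once. Gene positions, families and promoters came from RefSeq tables of GRCm38.p6, which is mm10, without exons or strand for genes.

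The members, gene lists and tests were chosen with earlier results of these data known. Tests were exact permutation tests over lists with Benjamini-Hochberg adjustment over 3 per-list measures. Named genes were those at the 10 widest members, at up to 10 members wide in the most lists, up to 4 per megabase with at least 3 members and up to 4 per gene list, those with fewest 2-DG lists and those at the width limit. Alternatives were other widths, filters on -log10 q and fold, equal list lengths, autosomes, the chromosome 2 segment, the conflicting lists, other member rules, a replicate block over consecutive titles, and leaving out each list. Leaving out the lists titled 9 and 10 was chosen after seeing the data. The numbers of a title did not come with a stated pairing, so the main tests used no block. The code was tested on simulated lists, where 140 of 140 planted wide regions were found. Python 3.11.15, NumPy 2.4.6, pandas 2.3.3 and SciPy 1.17.1 were used, with matplotlib 3.10.9 for plots.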

Additional observations from a re-analysis of the deposited data

Results flagged for a closer look

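In 38 groups of 4 lists, 5 held a list far from the other 3 by Dixon's criterion, which chance meets in about 1 in 20 groups. At 1600014C10Rik on chromosome 7, control list 3 had 294 bp and 2-DG list 3 had 112 bp under peaks, far below the other lists of their treatments. In the Sp140 cluster on chromosome 1, 2-DG list 3 was low with 16310 bp. In Mroh2a on chromosome 1, 2-DG list 1 was high with 1175 bp. The median width of the wide peaks was 1181.5 bp in 2-DG list 4, above the other 2-DG lists.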

How the results depend on the processing

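Under 800 bp and the alternatives tried, the differences in wide peaks per list kept their direction and stayed above 0.05 in all 21 alternatives. The share of wide peaks turned to 0.628 percentage points in favour of 2-DG with equal numbers of top peaks. There the share is the count over a fixed number of peaks, so it only restates the count, which was 21.75 higher under 2-DG. Leaving out each list in turn gave differences of 7.83 to 42.5 wide peaks, -0.885 to -0.167 percentage points, 24766 to 76024 bp (past 0.05 without 2-DG list 3), 0.0224 to 0.0701 for within minus between treatments and 0.0658 to 0.120 for consecutive titles. A width of 600 bp gave 0.0764 for within minus between and 0.0542 for consecutive titles, which came to 0.0468 without the lists titled 9 and 10. The member count was 251 at 600 bp, 39 at 1500 bp, 87 with a wide peak in at least 2 control lists and 19 with one in all 4, and 120 to 148 when a list was left out. Members touched in all 4 2-DG lists numbered 34 at 1500 bp, 19 under the rule of all 4 control lists, and 181 of 198 when 2-DG lists chose the members. They numbered 98 to 111 when a control list was left out. Leaving out a 2-DG list gave 116 to 126, where only the remaining 2-DG lists had to have a peak. Those wide in at least 1 2-DG list numbered 172 at 600 bp, 32 at 1500 bp, 19 under all 4 control lists and 198 when 2-DG lists chose them. Wide in all 8 lists were 28 at 600 bp and 4 at 1500 bp. Megabases with at least 3 members numbered 7 at 1500 bp and 2 under all 4 control lists. Members in a gene family cluster numbered 87 at 600 bp, 8 at 1500 bp, 28 with at least 2 control lists and 4 with all 4, and 35 to 51 when a list was left out. These counts move with the number of regions admitted. Counting an overlap only from 50% of a peak changed nothing by construction, since peaks lie wholly inside merged regions. With a replicate block over consecutive titles, the exact permutation p was 0.375 for wide peaks per list, 0.375 for their share, 0.125 for the sequence under them and 0.125 for within minus between, where 0.125 is the smallest possible; the block changed no call. Without read counts, no limit of detection can be set.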

Other observations

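The lists titled 17 and 18, whose title and description name different treatments, belong to no group and are given as single values. They held 4335 and 7847 peaks, touched 127 and 132 of the 145 members and had a wide peak at 64 and 72 of them. Near Zfp970 and Gm14403 on chromosome 2 they touched 3 and 2 of 9 members, with 805 and 580 bp under peaks, below all 8 compared lists. At 1600014C10Rik they touched all 5 members with 6822 and 8273 bp, between the near-empty lists titled 9 and 10 and the other 6. At Mrgpra3 they had 13435 and 13601 bp, above all 8 compared lists. In the Itln1 and Cd244a cluster both touched all 16 members, with 29791 and 29372 bp, and in the Sp140 cluster both touched all 28, with 29819 and 30240 bp.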
